A study of Mus musculus with 16 samples.

Results

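The genes described here encode the T cell receptor complex of helper T cells and the proteins that carry its signal to the nucleus. The set holds 46 genes of the 47643 in the deposited tables, chosen by name for their role in this pathway and matched by symbol to Ensembl identifiers. All 46 were found in both tables and passed the filter on low values in every comparison. They comprise 4 signalling chains of the receptor, 3 other surface proteins, kinases, adaptors, phosphatases, ubiquitin ligases, and the calcium, diacylglycerol and NF-kB branches.

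The study asked whether signalling through thyroid hormone receptor alpha bears on regulatory T cells. Spleens came from TRaGS mice, whose receptor alpha cannot bind DNA, and from TRaWT littermates, with 4 mice of each genotype. From each mouse CD25- CD4+ T cells, called CD4 cells here, and CD25+ CD4+ regulatory T cells (Treg) were sorted by flow cytometry after magnetic enrichment of CD4+ cells, which gave 16 libraries in 4 groups. Libraries were made from total RNA with a kit that reads the 3′ end of each messenger RNA, so isoforms that share an end, such as those of Ptprc, were not separated. The labels give neither age nor sex, nor any treatment of the mice, and the sort as described used no marker of naive cells beyond the absence of CD25.

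The receptor's antigen-binding chains have no enzymatic activity and signal through the CD3 chains and Cd247 (the zeta chain). When the receptor meets its ligand, the kinase Lck, brought in by the coreceptor CD4, phosphorylates these chains, Zap70 docks on them and phosphorylates the adaptors Lat and Lcp2, and phospholipase Plcg1 is recruited. Its products open the calcium route to NFAT factors and, through diacylglycerol, the Ras and NF-kB routes, while phosphatases, Csk, ubiquitin ligases and diacylglycerol kinases hold the signal down. Treg depend on receptor signals for their development and function.

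The libraries held 2679119 to 5095278 reads assigned to genes in CD4 cells and 2912038 to 4154027 in Treg. The most abundant gene, Gm42418, took 21.1% to 41.1% of reads in CD4 libraries and 20.8% to 33.0% in Treg, lower in Treg in 8 of 8 mice. The genes with a read numbered 11554 to 12140 in CD4 libraries and 12085 to 13924 in Treg, more in Treg in 8 of 8 mice, and the part of both in the differences between subsets was not tested. Foxp3, the lineage factor of Treg, ranged from 45.2 to 176 common-scale counts (reads recovered from the deposited values, divided by factors computed once over all 16 libraries) in the 8 CD4 libraries and from 820 to 1222 in the 8 Treg libraries, as the sort labels say. Thra, the gene of the altered receptor, ranged from 77.6 to 199.9 common-scale counts over all 16 libraries with overlapping genotypes, and since the alteration is in the protein these levels do not check the labels. CD4 libraries of TRaGS replicates 1 and 2 stood above replicates 3 and 4 for several members, given with their values. The CD4 library of TRaGS replicate 2 was the deepest and also held the B cell gene Cd79a at 51.8 and the globin gene Hbb-bs at 186 common-scale counts, beside at most 3.03 and 26.4 in the other CD4 libraries. Markers of 7 other cell types (B, plasma, CD8 T, NK, myeloid, neutrophil and erythroid cells) took 0.0373% ± 0.00669 of reads in TRaWT and 0.0413% ± 0.00881 in TRaGS CD4 libraries (SD, n = 4; exact two-sided permutation test, p = 0.514), and 0.0467% ± 0.00714 and 0.0723% ± 0.00871 in Treg (SD, n = 4; exact p = 0.0286, the smallest this design can give).

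Between the sorted subsets, the genes that passed the test were lower in Treg, 1 of 46 in TRaWT and 6 of 46 in TRaGS mice. Themis fell in Treg of both genotypes, and in TRaGS mice Cd247, Txk, Dgka, Rasgrp1 and Pag1 fell as well. In TRaWT mice, 1 of the 46 genes passed the test (limma on log2(common-scale count + 1), Benjamini-Hochberg adjusted p under 0.05 over all genes, n = 4 mice per subset), against 3.5% of the 10757 genes tested (1.93% higher and 1.56% lower). In TRaGS mice 6 of 46 passed, all lower in Treg, against 3.84% of 10791 genes in either direction, 2.14% higher and 1.7% lower. No member rose in either genotype by this test, but on the deposited values, normalised separately for each subset, Nfkb1, Nfkbia and Ptpn22 passed as higher in TRaWT Treg. The median difference of the members, Treg minus CD4, was -0.24 in TRaWT and -0.22 in TRaGS mice on the log2 scale, beside 0.08 and 0.18 for all genes tested.

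With a term for the animal in the fit, which pairs the subsets of each mouse, the count was 7 of 46 in TRaWT mice, against 5.29% of all genes. There Cd247, Cd4, Grb2, Lat and Txk joined Themis as lower and Nfkb1 was higher. In TRaGS mice the same fit gave 8, against 6.38% of all genes, adding Cd3d and Nfatc3 to the 6 lower genes. The term also changed how far limma drew each variance toward a trend over all genes. With it the TRaWT variances came wholly from that trend, and the TRaGS variances nearly so. The TRaWT SEs and p with the term thus follow a gene's level and not its own spread between mice. In TRaWT mice the SE of Themis was 0.245 without the term and 0.244 with it. Its unadjusted limma p was 1.44e-05 without the term and 1.13e-06 with it. The SE of Cd247 in these mice was 0.179 and 0.168. The part of pairing in the higher counts was not tested. Groups did not overlap for 10 of 46 members in TRaWT mice, 1 higher and 9 lower, against 10.1% of all genes tested (5.47% higher, 4.67% lower), and for 7 in TRaGS mice, all lower, against 13.4% (7.87% higher, 5.58% lower). The share of all called genes that were higher in Treg was 55.3% in TRaWT and 55.8% in TRaGS mice, and it became 42.6% and 34.0% when libraries were centred on the median of all genes and 78.4% and 77.8% on the deposited, separately normalised values. In these bulk samples, fewer cells of a type and less RNA per cell cannot be told apart.

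**Figure D1:**
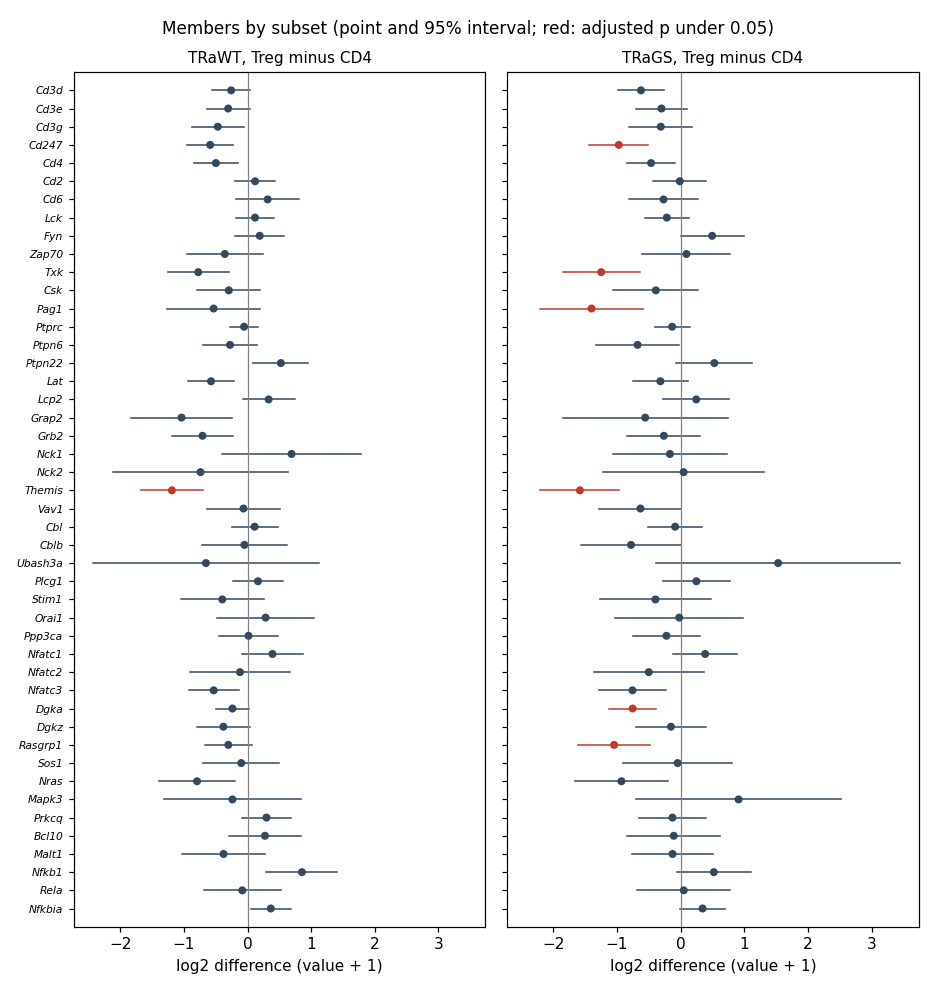
Log2 difference of common-scale counts + 1, Treg minus CD4, for the 46 genes in TRaWT (left) and TRaGS mice (right). Points are fitted differences, bars 95% intervals and red marks adjusted p under 0.05 (n = 4 mice per group); Themis is red in both panels, and the other 5 red genes are in the right panel.

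Themis is an adaptor that binds Grb2 and tunes receptor signals during T cell development. In TRaWT mice its common-scale counts in replicates 1 to 4 were 328, 528, 458 and 511 in CD4 cells and 192, 198, 176 and 222 in Treg. In TRaGS mice they were 536, 373, 653 and 398 in CD4 cells and 180.0, 114, 161 and 191 in Treg. Every Treg library lay below every CD4 library of its genotype. The log2 difference was -1.19 ± 0.24 (SE; 0.44-fold; limma adjusted p = 0.00139) in TRaWT and -1.58 ± 0.30 (0.33-fold; limma adjusted p = 0.00371) in TRaGS mice. The TRaWT call held in all 14 alternative settings and the TRaGS call in 13 of 14; without TRaGS replicate 3 the adjusted p was 0.0847.

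Among the kinases, Txk, a Tec family kinase that acts on phospholipase C, also had lower values in Treg. Its common-scale counts in CD4 cells were 787, 415, 480.2 and 414 in TRaWT and 583, 966, 424 and 419 in TRaGS mice. In Treg they were 332, 366, 217 and 286 in TRaWT and 267, 253, 193 and 239 in TRaGS mice. Treg lay below CD4 cells without overlap in both genotypes, and the CD4 libraries of TRaWT replicate 1 and TRaGS replicate 2 were the high ones. Txk fell in TRaGS mice (log2 difference -1.25 ± 0.29, SE, 0.42-fold, limma adjusted p = 0.0181). In TRaWT mice the value was -0.77 ± 0.24 (SE, 0.58-fold, limma adjusted p = 0.055), and 0.0115 with the animal as a term. Lck, which starts the cascade, had common-scale means of 1708 ± 347 in TRaWT CD4 cells and 1824 ± 99.1 in TRaWT Treg, and of 1738 ± 143 and 1499 ± 193 in TRaGS mice (SD, n = 4). Fyn, the related kinase, had means of 783 ± 201 and 880.2 ± 169 in TRaWT and 689 ± 221 and 939 ± 143 in TRaGS mice (SD, n = 4). Zap70 had means of 245 ± 93.6 and 187 ± 47.9 in TRaWT and 239 ± 68.6 and 253 ± 66.8 in TRaGS mice (SD, n = 4). The groups overlapped for these 3 kinases in both genotypes, and none passed the test.

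All 4 signalling chains of the receptor had lower common-scale values in Treg than in CD4 cells of the same mouse, in 4 of 4 mice of each genotype. Their fitted differences were negative under every scaling tried, but on deposited values only Cd247 was lower in 4 of 4 mice of both genotypes, and Cd3d was lower in 2 of 4 TRaWT mice and Cd3e and Cd3g in 2 of 4 TRaGS mice each. Cd247, whose chain carries most of the receptor's phosphorylation motifs, had common-scale counts of 967, 914, 1028 and 746 in TRaWT CD4 cells and 559, 596, 684 and 582 in TRaWT Treg. In TRaGS mice its counts were 1359, 1143, 852 and 902 in CD4 cells and 439.7, 649.7, 597 and 469.6 in Treg. The subsets did not overlap in either genotype, and TRaGS CD4 replicate 1 was the highest library. Cd247 fell in TRaGS mice by 0.97 ± 0.22 on the log2 scale (SE, 0.51-fold, limma adjusted p = 0.0166). In TRaWT mice the difference was -0.59 ± 0.18 (SE, 0.67-fold, limma adjusted p = 0.0543), and it passed at 0.0133 with the animal as a term.

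The 3 CD3 chains lie together on chromosome 9 of GRCm38, with Cd3g at chr9:44969572-44980431 on the minus strand, Cd3d at chr9:44981786-44987339 on the plus strand and Cd3e at chr9:44998740-45009627 on the minus strand. Cd3d had common-scale counts of 2219, 2803, 1921 and 1824 in TRaGS CD4 cells and 1233, 1425, 1596 and 1374 in TRaGS Treg. These groups did not overlap, and the log2 difference was -0.62 ± 0.18 (SE, 0.65-fold, limma adjusted p = 0.0504, and 0.00578 with the animal as a term). In TRaWT mice the Cd3d difference was -0.26 ± 0.15 (SE). Cd3e, with means of 1162 ± 211 and 931 ± 83.1 common-scale counts in TRaWT CD4 cells and Treg and 1134 ± 77.2 and 929 ± 159 in TRaGS mice (SD, n = 4), differed by -0.30 in both genotypes, with SEs of 0.17 and 0.19. Cd3g differed by -0.47 ± 0.21 in TRaWT mice, without overlap, and by -0.31 ± 0.24 in TRaGS mice (SE), where the subsets overlapped. Neither Cd3e nor Cd3g passed the test with or without the animal as a term.

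Promoter sequences are shown for 4 of the genes that fell in Treg of TRaGS mice, namely those whose subsets did not overlap in either genotype. Each is the 250 bases before the most upstream start site listed by RefSeq (GRCm38.p6), read 5′ to 3′ on the gene's strand; RefSeq windows matched 37 of the 46 members, with 53 windows in all. The windows are Themis at chr10:28668110-28668359 (plus strand), Cd247 at chr1:165788431-165788680 (plus), Txk at chr5:72752778-72753027 (minus) and Dgka at chr10:128745085-128745334 (minus). Capitals mark matches to 1 of 3 motifs of 6 letters: the nuclear receptor half-site AGGTCA, to which thyroid hormone receptors can bind, the RUNX core TGTGGT and the TCF-LEF core CTTTGA, each searched on both strands.
Themis: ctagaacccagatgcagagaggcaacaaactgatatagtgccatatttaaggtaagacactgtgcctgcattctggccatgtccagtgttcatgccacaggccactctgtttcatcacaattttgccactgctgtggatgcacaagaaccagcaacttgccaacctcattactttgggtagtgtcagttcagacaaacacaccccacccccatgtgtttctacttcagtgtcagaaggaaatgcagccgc
Cd247: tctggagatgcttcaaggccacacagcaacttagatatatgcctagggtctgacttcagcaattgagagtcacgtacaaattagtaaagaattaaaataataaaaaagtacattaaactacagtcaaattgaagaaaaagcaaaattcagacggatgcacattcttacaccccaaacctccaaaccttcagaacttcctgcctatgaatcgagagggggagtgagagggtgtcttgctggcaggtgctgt
Txk: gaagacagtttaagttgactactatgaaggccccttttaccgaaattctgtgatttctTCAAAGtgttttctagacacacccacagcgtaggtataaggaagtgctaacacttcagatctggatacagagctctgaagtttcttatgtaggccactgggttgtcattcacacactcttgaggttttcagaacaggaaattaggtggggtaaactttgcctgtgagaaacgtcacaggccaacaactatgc
Dgka: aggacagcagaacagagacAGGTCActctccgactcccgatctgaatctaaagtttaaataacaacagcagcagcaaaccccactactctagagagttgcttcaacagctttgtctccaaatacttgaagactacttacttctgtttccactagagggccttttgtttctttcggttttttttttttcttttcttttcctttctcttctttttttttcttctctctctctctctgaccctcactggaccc

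The Dgka window held AGGTCA 231 bases before the start and the Txk window held the reverse complement TCAAAG 192 bases before it. No match to the 3 motifs was in the Themis and Cd247 windows shown. Over all 53 member windows, AGGTCA or its complement was in 6 (11.3%), beside 14.02% of 32851 windows of the same length. The RUNX core was in 5 (9.43%), beside 14.05%, and the TCF-LEF core in 8 (15.1%), beside 13.8%. These are matches of letters and not measured binding.

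The surface coreceptor Cd4, by which the cells were enriched and sorted, had common-scale counts of 893, 897, 1050 and 979 in TRaWT CD4 cells and 678, 691, 653 and 676 in TRaWT Treg. In TRaGS mice it had 1147, 1185, 1186 and 1097 in CD4 cells and 813, 845, 945 and 747 in Treg. Treg were below CD4 cells without overlap in both genotypes. The log2 differences were -0.50 ± 0.17 (limma adjusted p = 0.1, and 0.0446 with the animal as a term) and -0.47 ± 0.18 (SE; adjusted p = 0.164). Cd2, an adhesion receptor, and Cd6, a scaffold that restrains signalling, did not pass in either genotype, with differences between -0.27 and 0.32.

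Among the other adaptors, Lat, the membrane scaffold on which the signalling complex forms, had common-scale counts of 763, 879.5, 969.5 and 983 in TRaWT CD4 cells and 529, 731, 557 and 605 in TRaWT Treg. These groups did not overlap; the log2 difference was -0.57 ± 0.18 (SE, 0.67-fold, limma adjusted p = 0.0647, and 0.0177 with the animal as a term). In TRaGS mice the Lat difference was -0.32 ± 0.21 (SE) and the subsets overlapped. Grb2, which links Lat to the Ras exchange factor Sos1, differed by -0.71 ± 0.24 in TRaWT mice (SE, limma adjusted p = 0.0971, and 0.0485 with the animal as a term) and by -0.26 ± 0.28 in TRaGS mice. On the common scale both genes were lower in Treg in 4 of 4 mice of each genotype, and on deposited values Grb2 was lower in 1 of 4 TRaGS mice. Lcp2 (SLP-76), which Zap70 phosphorylates beside Lat, had differences of 0.33 and 0.24 in the 2 genotypes and passed in neither. Grap2 (Gads), which ties Lcp2 to Lat, had differences of -1.04 and -0.56 and passed in neither genotype. Over the 8 members of this group, which includes the exchange factor Vav1, 6 had negative differences in each genotype and Themis was the one that passed.

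Of the genes that hold the signal down, Pag1, the membrane anchor of the inhibitory kinase Csk, had common-scale counts of 368, 351, 280.3 and 141 in TRaGS CD4 cells and 123, 143, 68.7 and 83.9 in TRaGS Treg. The subsets overlapped through the low CD4 library of replicate 4, which lay just under the highest Treg library. Pag1 fell in TRaGS Treg by 1.40 ± 0.39 on the log2 scale (SE, 0.38-fold, limma adjusted p = 0.0476), and in TRaWT mice the difference was -0.53 ± 0.37 (SE). The Pag1 call held in 8 of 14 alternatives, and was lost without any 1 of the 4 TRaGS mice, on deposited values and with no filter on low values (adjusted p = 0.0942), the range over alternatives being 0.00484 to 0.234. Csk had differences of -0.29 and -0.39 and did not pass. Ptprc (CD45), the phosphatase that keeps Lck active, had common-scale means of 6432 ± 196 and 6195 ± 203 in TRaWT CD4 cells and Treg and of 6966 ± 802 and 6323 ± 419.7 in TRaGS mice (SD, n = 4), with overlap. Ptpn22, a phosphatase that acts on Lck and Zap70, was the member whose Treg libraries all lay above the CD4 libraries in TRaWT mice, at 426, 447, 523 and 573 against 356, 379.6, 327 and 299.8 common-scale counts. It did not pass (log2 difference 0.52 ± 0.22, SE, limma adjusted p = 0.201), and in TRaGS mice the groups overlapped (0.53 ± 0.29). Ptpn6 (SHP-1) had differences of -0.28 and -0.68 and the ubiquitin ligases Cbl and Cblb between -0.78 and 0.11, and none passed. Ubash3a, a suppressor of receptor signals related to phosphatases, ranged from 3.29 to 109 common-scale counts over all libraries, and its differences were -0.65 ± 0.88 in TRaWT and 1.53 ± 0.92 in TRaGS mice (SE), neither of which passed.

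In the diacylglycerol and Ras branch, Dgka, the kinase that removes diacylglycerol, had common-scale counts of 3449, 4294, 2473 and 3421 in TRaGS CD4 cells and 2022, 2385, 1702 and 1875 in TRaGS Treg. In TRaWT mice it had 3394, 3021, 3105 and 3074 in CD4 cells and 2952, 2900, 2405 and 2464 in Treg. Neither genotype's subsets overlapped, and the gap between the lowest CD4 and the highest Treg library was narrow in both. Dgka fell in TRaGS Treg by 0.76 ± 0.18 on the log2 scale (SE, 0.59-fold, limma adjusted p = 0.0187); in TRaWT mice the difference was -0.24 ± 0.13 (SE, adjusted p = 0.379). Rasgrp1, the Ras exchange factor that diacylglycerol recruits, had 1179, 2006, 749 and 709 common-scale counts in TRaGS CD4 cells and 568, 462, 454 and 577 in TRaGS Treg. Its CD4 replicates 1 and 2 were far above replicates 3 and 4, all 4 above Treg. Rasgrp1 fell in TRaGS Treg by 1.05 ± 0.27 (log2, SE, 0.48-fold, limma adjusted p = 0.0364), and without TRaGS replicate 2 the difference was -0.69 with an adjusted p of 0.0935. This call also held in 8 of 14 alternatives, and was lost without any 1 of the 4 TRaGS mice, on deposited values and with no filter on low values (adjusted p = 0.0852), the range being 0.000174 to 0.162. In TRaWT mice it was -0.30 ± 0.18 (SE). Nras had differences of -0.79 and -0.93, Sos1 of -0.10 and -0.05 and Dgkz of -0.38 and -0.15, and none passed.

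In the calcium branch no member passed the limma test without the animal as a term on common-scale counts. Nfatc3, an NFAT factor, had differences of -0.53 ± 0.20 in TRaWT and -0.76 ± 0.25 in TRaGS mice (SE; limma adjusted p = 0.138 and 0.0992), the second at 0.0104 with the animal as a term, 0.0385 with DESeq2 and 0.0366 when centred on the median of all genes. Nfatc1, whose own promoter responds to NFAT, had common-scale means of 343 ± 67.7 and 461 ± 148 in TRaWT CD4 cells and Treg and of 359 ± 35.9 and 472 ± 74.6 in TRaGS mice (SD, n = 4). The remaining members, Plcg1, the calcium sensor Stim1, the channel Orai1, the calcineurin subunit Ppp3ca and Nfatc2, had differences between -0.50 and 0.28. In the NF-kB branch, Nfkb1 had common-scale counts of 353, 430.2, 113 and 221 in TRaWT CD4 cells and 488, 365, 477 and 481 in TRaWT Treg, which overlapped. The Nfkb1 difference was 0.85 ± 0.28 in TRaWT mice (SE, limma adjusted p = 0.0762) and 0.52 ± 0.28 in TRaGS mice. In TRaWT mice it passed with the animal as a term (limma adjusted p = 0.00765), where the variance came from the trend over all genes. By TRaWT mouse the Treg minus CD4 differences were 0.47, -0.24, 2.07 and 1.12 (log2), so Nfkb1 was lower in Treg in 1 of 4. Nfkbia, the NF-kB inhibitor that NF-kB itself induces, had differences of 0.37 ± 0.15 and 0.34 ± 0.17 (SE) and did not pass. Prkcq, Bcl10, Malt1 and Rela had differences between -0.38 and 0.30.

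**Figure D2:**
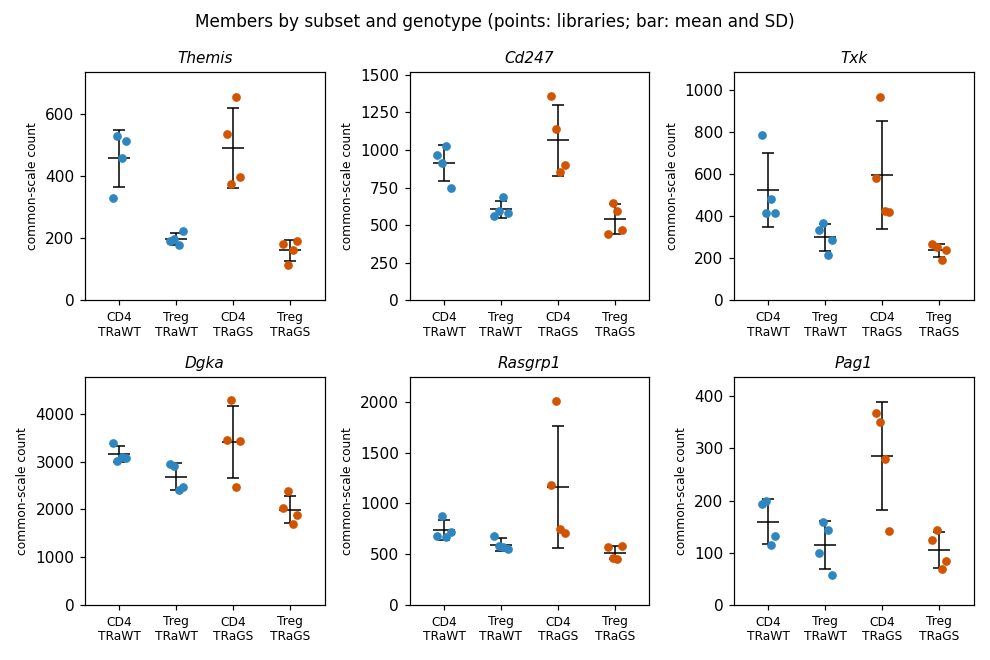
Common-scale counts of the 6 genes lower in Treg of TRaGS mice, by library, in CD4 cells and Treg of both genotypes (blue TRaWT, orange TRaGS; black bars mean and SD, n = 4). Themis, Cd247, Txk and Dgka have Treg points below all CD4 points of the same genotype, and the wide TRaGS CD4 spread of Rasgrp1 runs from 709 to 2006.

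The 2 subsets of a genotype also differed in markers that are no members. Summed common-scale counts of 4 markers of naive T cells (Ccr7, Lef1, Tcf7, Il7r) were 5849.9 to 7459 in TRaWT CD4 cells and 3115 to 3661 in TRaWT Treg, and 7777 to 11939 and 3263 to 3680.25 in TRaGS mice. The part of this in the lower Treg values of the members was not tested. The 6 calls in TRaGS mice changed with the mouse left out and with the values used. Without TRaGS replicate 3 no member passed (smallest limma adjusted p = 0.0584) and without replicate 1 or replicate 4 Themis alone did; without replicate 2, Themis, Cd247, Txk and Dgka did; on the deposited values, which were normalised separately for the 2 subsets, Themis and Txk passed. All-gene differences in TRaGS mice had a median of 0.18, and centring on it moved Themis to -1.76 and Cd247 to -1.15.

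Other genes of the pathway from a list of 90 gave, in TRaWT mice, 3 higher and 5 lower in Treg of 88 tested. Higher were the NF-kB subunits Rel (log2 difference 1.33 ± 0.24, SE) and Nfkb2 and the Ras regulator Rasa1; the lower ones included Thy1, Cdc42 and Rap1b. In TRaGS mice 3 of 89 were higher, Sla, Ptpn7 and Rel (1.61 ± 0.28), and 7 were lower, among them Trbc2, Thy1, Pik3cd, Gab3, Cdc42 and Rassf5. Of all genes tested, 1.93% were called higher and 1.56% lower in TRaWT Treg, and 2.14% and 1.7% in TRaGS Treg. The median of the 90-gene list was 0.05 in TRaWT and 0.03 in TRaGS mice. The receptor beta constant gene Trbc2 differed by -0.87 ± 0.14 in TRaGS mice (SE, limma adjusted p = 0.000837); Trbc1 and Trbc2 are near-identical, so their reads may be split unevenly. Of 16 genes known to be induced by receptor signals, 5 rose in TRaWT Treg (Tnfrsf4, Tnfrsf9, Tnfrsf18, Pdcd1 and Ctla4) and 4 in TRaGS Treg (Tnfrsf4, Tnfrsf9, Tnfrsf18 and Ctla4), with list medians of 0.85 in both. Ctla4, Tnfrsf4 and Tnfrsf18 are also known as constitutive products of Treg. Rel and Thy1 kept their calls in all 14 alternatives except Thy1 without TRaWT replicate 4 (limma adjusted p = 0.0623). Rasa1 and Pdcd1 in TRaWT mice were called in 7 of 14 alternatives and in none that left out a mouse, and Gab3 and Rassf5 in TRaGS mice in 8 of 14, also in none that left out a mouse. The Tnfrsf18 call in TRaWT mice was lost with DESeq2 (adjusted p = 0.0852). Calls of Cdc42, Sla and Ptpn7 in TRaGS mice were lost without replicate 1, 3 or 4, and that of Ctla4 without replicate 3. In TRaWT mice those of Nfkb2 were lost without replicate 3 or 4 and Cdc42 without replicate 1 or 4. Cdc42 also lost its call in both genotypes with no filter on low values and on deposited values (limma adjusted p = 0.142 in TRaWT and 0.128 in TRaGS mice). The TRaGS call of Sla was also lost with no filter and when centred on the median of all genes.

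The comparison the study set out to make, TRaGS against TRaWT within each subset, gave no call among the 46 genes. In Treg 0 of 46 passed (limma on log2(deposited normalised count + 1), adjusted p under 0.05, n = 4 mice per genotype), against 0.959% of 11051 genes tested (0.733% higher, 0.226% lower). Dgka and Prkcq had the smallest adjusted p, 0.119 each, and both had lower values in TRaGS Treg. At an unadjusted p under 0.05 there were 7 members, against 9.12% of all genes; edgeR called 0 and DESeq2 called 1, Prkcq. The genotypes did not overlap for 5 members, 3 higher (Cd4, Malt1, Nck2) and 2 lower (Dgka, Prkcq), against 5.07% of all genes (2.84% higher, 2.23% lower). The median difference of the members was -0.06, beside 0.01 for all genes, and for 41 of 46 the 95% interval lay within a 2-fold change either way.

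Dgka in Treg had deposited normalised counts of 3197, 3160, 2623 and 2710 in TRaWT and 2192, 2598, 1852 and 2040 in TRaGS mice. All TRaGS libraries were below all TRaWT libraries, with TRaGS replicate 2 close to TRaWT replicate 3. The log2 difference was -0.43 ± 0.13 (SE, 0.74-fold, 95% interval -0.70 to -0.17). Without TRaGS replicate 2 Dgka passed (limma adjusted p = 0.0249), and over the 18 alternatives the adjusted p ran from 0.0249 to 0.721.

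Prkcq, the protein kinase C theta that links diacylglycerol to the NF-kB route, had deposited normalised counts of 689.6, 916, 734 and 731 in TRaWT Treg and 577, 597, 453 and 482 in TRaGS Treg. The groups did not overlap, and TRaWT replicate 2 was the high library. The log2 difference was -0.54 ± 0.16 (SE, 0.69-fold, 95% interval -0.87 to -0.22). DESeq2 on the recovered reads gave an adjusted p of 0.0437, and the range over the 18 alternatives was 0.0437 to 0.716. Malt1, the paracaspase that acts downstream of Prkcq, had 195, 139, 142 and 176 in TRaWT and 246, 232, 229.8 and 271 in TRaGS Treg. All TRaGS values were higher, and the difference of 0.59 ± 0.23 (log2, SE, 1.51-fold) had a limma adjusted p of 0.346. Bcl10, which joins Malt1 to the receptor's scaffold, differed by -0.13.

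Cd4 had deposited normalised counts of 735, 754, 713 and 743 in TRaWT Treg and 881, 921, 1028 and 813 in TRaGS Treg. The TRaGS values were all higher, by 0.30 ± 0.15 on the log2 scale (SE, 1.23-fold, limma adjusted p = 0.528). In CD4 cells its counts were 846, 859, 995 and 928 in TRaWT and 1109, 1131, 1110 and 1037 in TRaGS mice, again without overlap, with a log2 difference of 0.28 ± 0.24 (SE, 1.21-fold, limma adjusted p = 0.947). The SE in CD4 cells came from a trend of variance over all genes and not from the spread of Cd4 itself. The libraries of the 2 subsets came from the same mice, and Cd4 passed in neither subset. Nck2, an adaptor that binds Cd3e and guides actin remodelling, had low deposited counts of 32.9, 32.2, 23.3 and 38.7 in TRaWT Treg and 63.1, 57.8, 82.5 and 52.2 in TRaGS Treg, without overlap (log2 difference 0.99 ± 0.45, SE, limma adjusted p = 0.496).

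Lck in Treg had deposited counts of 1867, 1921, 2118 and 2054 in TRaWT and 1556, 1416, 1914 and 1634 in TRaGS mice. The groups overlapped through TRaGS replicate 3, and the log2 difference was -0.29 ± 0.13 (SE, 0.82-fold, limma adjusted p = 0.468). Plcg1 had 649, 542, 579.6 and 824 in TRaWT and 469, 452, 518 and 581 in TRaGS Treg, with overlap (log2 difference -0.35 ± 0.17, SE, adjusted p = 0.521). The receptor chains were close between genotypes in Treg: Cd3d, Cd3e, Cd3g and Cd247 differed by -0.04 ± 0.13, -0.02 ± 0.15, 0.23 ± 0.18 and -0.19 ± 0.16 (log2, SE), and their groups overlapped. Each of these 4 intervals lay within a 2-fold change. Fyn, Zap70, Lat and Ptprc differed by 0.09 ± 0.15, 0.42 ± 0.24, 0.05 ± 0.16 and 0.02 ± 0.11 (log2, SE), also with overlap.

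**Figure D3:**
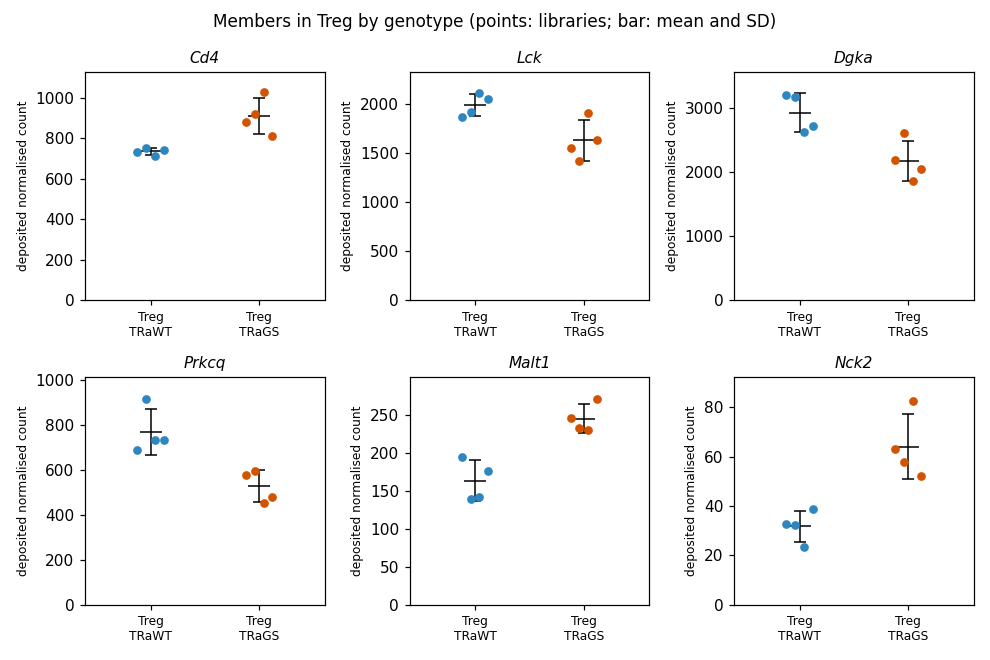
Deposited normalised counts in Treg for 6 members, by library (blue TRaWT, orange TRaGS; black bars mean and SD, n = 4). Cd4, Malt1 and Nck2 have all TRaGS points above the TRaWT points, Dgka and Prkcq have them below, and Lck overlaps.

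Markers that are no members also differed between genotypes in Treg. Summed common-scale counts of 8 B cell markers were 790.0 to 1142 in TRaWT and 1294 to 1825 in TRaGS Treg; Ighm made up most of this, with means of 866 ± 122 and 1388 ± 244 (SD, n = 4), while Cd79a was at or below 1.07 in every Treg library. The sums of 4 markers of activated T cells (Cd44, Itgb1, S100a4, Icos) were 1416 to 1957 and 3022 to 4178. Neither of these 2 lists' ranges overlapped between genotypes. The lists for plasma, CD8 T, NK, myeloid, neutrophil and erythroid cells and for Treg did overlap. Whether the sums of naive T cell markers overlapped between genotypes depended, in Treg and in CD4 cells, on which markers were summed, and no comparison of genotypes is drawn from them. The part of these differences in the values of Dgka, Prkcq, Malt1, Cd4 and Nck2 was not tested.

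In CD4 cells 0 of 46 members passed by limma (n = 4 mice per genotype), against 0.0575% of 10426 genes tested, and edgeR and DESeq2 called 0 as well. At an unadjusted p under 0.05 there were 2, Nfatc3 and Rasgrp1, against 5.17% of all genes. The genotypes did not overlap for 2, Cd4 (higher) and Dgkz (lower), against 3.16% (1.43% higher, 1.73% lower). The median difference of the members was 0.10, beside -0.01 for all genes, with 30 positive and 16 negative. Of the 46 intervals, 26 lay within a 2-fold change either way. In this fit limma took each variance wholly from a trend over all genes. The SEs and intervals for genotype in CD4 cells thus follow a gene's level and not its own spread between mice. The sum of 4 Treg markers (Foxp3, Il2ra, Ikzf2, Ctla4) was 607 to 729.7 common-scale counts in TRaWT and 752 to 1089 in TRaGS CD4 cells, without overlap, and its part in these values was not tested.

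Rasgrp1 in CD4 cells had deposited normalised counts of 640.2, 843, 629 and 682 in TRaWT and 1140, 1915, 701 and 670.2 in TRaGS mice. Replicates 1 and 2 of TRaGS were high and replicates 3 and 4 lay within the TRaWT range. The log2 difference was 0.54 ± 0.25 (SE, 1.45-fold, limma adjusted p = 0.947). Nfatc3 had 819, 839.6, 663 and 513 in TRaWT and 1006, 1773, 729.9 and 809 in TRaGS CD4 cells. The same 2 TRaGS mice were highest, among them the library with high Cd79a and Hbb-bs, whose part was not tested, and the log2 difference was also 0.54 ± 0.25 (SE, 1.46-fold, adjusted p = 0.947). With TRaGS replicates 1 and 2 alone against the 4 TRaWT mice, the smallest adjusted p of a member was 0.0783, for Rasgrp1. Pag1 had 182, 190.5, 109 and 126 in TRaWT and 356, 335, 262 and 133 in TRaGS CD4 cells, with replicate 4 of TRaGS inside the TRaWT range (log2 difference 0.78 ± 0.43, SE, adjusted p = 0.947).

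Dgkz, the diacylglycerol kinase that most limits Ras signalling in T cells, had 526, 559, 531 and 590.3 deposited normalised counts in TRaWT and 501, 356, 405 and 522 in TRaGS CD4 cells. The groups were separated by a narrow gap between 522 and 526, and the log2 difference was -0.32 ± 0.30 (SE, 0.80-fold, limma adjusted p = 0.947). Cd3d had 1332, 1667, 1673 and 1902 in TRaWT and 2145, 2675, 1798 and 1724 in TRaGS CD4 cells, with overlap (log2 difference 0.33 ± 0.20, SE). Cd3e, Cd3g and Cd247 differed by -0.02 ± 0.23, 0.09 ± 0.29 and 0.20 ± 0.25 (log2, SE). Lck, Fyn, Zap70, Lat and Ptprc had values of 0.05 ± 0.21, -0.20 ± 0.27, -0.02 ± 0.40, -0.20 ± 0.26 and 0.11 ± 0.16 (log2, SE), and their groups overlapped. Mapk3, the ERK1 kinase at the end of the Ras route, had 36.3, 111, 127 and 30.5 in TRaWT and 9.78, 12.02, 37.9 and 64.2 in TRaGS CD4 cells, and Nck1 had 46.0, 10.9, 198 and 98.8 against 178, 78.5, 82.0 and 116. The spread of both genes within a genotype was as wide as the difference between genotypes.

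**Figure D4:**
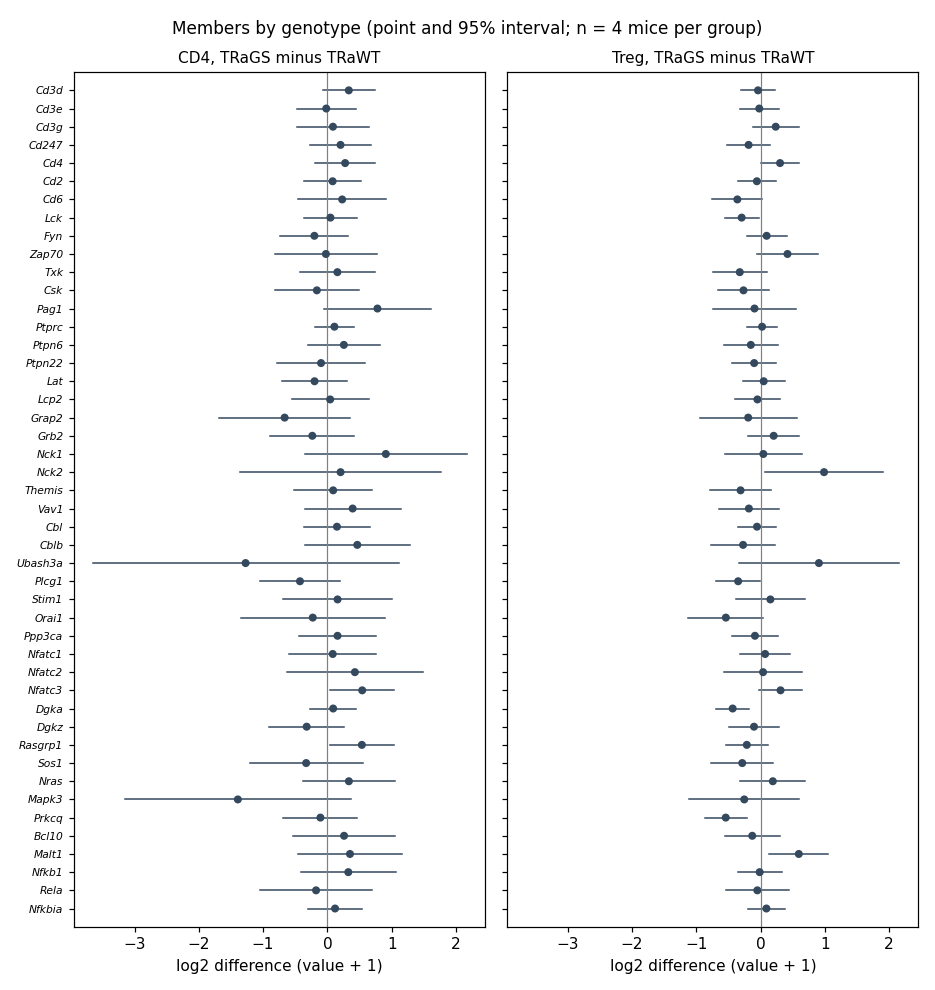
Log2 difference of deposited normalised counts + 1, TRaGS minus TRaWT, for the 46 genes in CD4 cells (left) and Treg (right). Points are fitted differences and bars 95% intervals (n = 4 mice per group). On the left the bars rest on a trend of variance over all genes and not on each gene's own spread. No member passed the test in either panel, and 26 intervals on the left and 41 on the right lie within 1 log2 unit of 0.

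A test of whether genotype acted unlike in Treg and CD4 cells, made on the Treg minus CD4 value of every mouse, called 0 of 46 members (limma, n = 4 mice per genotype), against 0.171% of 9914 genes tested (0.0303% higher, 0.141% lower). At an unadjusted p under 0.05 there were 2 members, Dgka (-0.52 ± 0.18, log2, SE, limma adjusted p = 0.410) and Rasgrp1 (-0.75 ± 0.29, adjusted p = 0.545), against 6.62% of all genes, and edgeR called 0. For both genes the genotype value in CD4 cells was positive, 0.09 and 0.54, and in Treg negative, -0.43 and -0.21. The members' median was -0.12, beside 0.01 for all genes.

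Of the other pathway genes, 0 of 85 passed for genotype in CD4 cells and 0 of 89 in Treg by limma, against 0.0575% and 0.959% of all genes. At an unadjusted p under 0.05 there were 9 and 11, against 5.17% and 9.12% of all genes. Among the smallest p in CD4 cells were the PI3 kinase subunit Pik3cd (log2 difference 0.64 ± 0.22, SE) and the calcium release channel Itpr3 (1.25 ± 0.47). In Treg they were Sla (0.54 ± 0.18, adjusted p = 0.232), Ptpn2 (-0.68 ± 0.23), Itpr1 (0.67 ± 0.23) and Ptpn7 (0.40 ± 0.15). Pik3cd passed for the difference between subsets (-1.02 ± 0.25, SE, limma adjusted p = 0.0448): its common-scale counts were 1064, 1266, 1066 and 942 in TRaWT and 1757, 2173, 1272 and 1624 in TRaGS CD4 cells, and 644, 784, 1070.3 and 805 in TRaWT and 676, 615, 577 and 627 in TRaGS Treg. The TRaGS values were all higher in CD4 cells and overlapped in Treg. This call held in 7 of 15 alternatives and was lost when TRaGS replicate 1 or 2 or TRaWT replicate 2, 3 or 4 was left out, with edgeR, with no filter on low values and with no replicate block, and the adjusted p ran from 0.0388 to 0.774. Among the 16 genes induced by receptor signals none passed in either subset by limma; 0 of 16 tested in CD4 cells and 7 of 15 in Treg had an unadjusted p under 0.05, against 5.17% and 9.12% of all genes; the 7 were 5 higher and 2 lower, and the list's median in Treg was -0.05. In CD4 cells the smallest were Egr2 (log2 difference 1.65 ± 1.23, SE), Myc (-1.27 ± 1.20), Tnfrsf9 (0.76 ± 0.83) and Nr4a3 (-0.65 ± 0.74), all with overlap. In Treg the smallest were Tnfrsf18 (0.56 ± 0.16, SE, adjusted p = 0.0774), Tnfrsf4 (0.52 ± 0.16), Egr1 (0.55 ± 0.18) and Tnfrsf9 (0.51 ± 0.18), each without overlap between genotypes. The other 3 were Irf4 (1.05 ± 0.44), Dusp2 (-0.51 ± 0.20) and Fos (-1.02 ± 0.42), with overlap, named after their values were seen. Tnfrsf18, the costimulatory receptor GITR, passed with DESeq2 and with upper-quartile scaling, its adjusted p running from 0.00805 to 0.475 over the 18 alternatives.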

How the data were processed

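RNA from 16 libraries of sorted mouse spleen T cells was sequenced from the 3′ end. The authors deposited 1 table of normalised counts per subset, a signal per gene and library; per the submitters' processing notes the build was GRCm38, while no source used here names the aligner, the counting tool or the normalisation. In each library all values were whole multiples of the smallest one (tolerance 0.001 reads), so whole reads were recovered; depth was 2679119 to 5095278 reads, and precision rests on 4 mice per group. The tables were normalised separately, so subsets were compared on recovered reads scaled by median-of-ratios factors over all 16 libraries.

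Genes with a mean of at least 5 were tested with limma 3.58.1 (R 4.3.3, variance trend, log2(value + 1), Benjamini-Hochberg over all genes, threshold 0.05). A fold change on this scale understates that of low genes. The test was also run on simulated data without the animal as a term, so that run does not check the fits that have it. Limma draws the variance of each gene toward a trend over all genes. In the genotype fit of CD4 cells, and in the TRaWT fit with the animal as a term, it took the variances wholly from that trend. In the TRaGS fit with that term it took them nearly wholly from it. Alternatives were DESeq2 1.42.0 and edgeR 4.0.16, run on the reads recovered above, other pseudocounts (0.5, 5), filters and scalings, a block for replicate or animal, and leaving out each mouse. Centring on the median of all genes was chosen after seeing the data. Exact permutation tests were two-sided, over samples.

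The members and all lists were chosen with earlier results of these data known. Members named are 10 fixed genes, those called, those whose genotypes did not overlap, the 6 with the smallest p per subset, and those called between subsets; other listed genes are those called or the 4 with the smallest p, of which some are not reported here. The sum over 4 naive T cell markers was chosen after seeing the data. Members named only for a call with the animal as a term, or to describe their role group, were chosen after their values were seen. Replicate numbers tie the 2 subsets of a mouse through the animal numbers in the titles (correlation of deviations from -0.00826 to 0.0432); across genotypes they are only numbers. Gene positions are from GENCODE release 21 for mouse and promoters from RefSeq. Comparisons share libraries and are not independent. Figures and exact tests used Python 3.11.15, matplotlib 3.10.9 and scipy 1.17.1.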

Additional observations from a re-analysis of the deposited data

Results flagged for a closer look

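Among 92 groups of 4 libraries of the named members, 4 held a library far from the other 3 by Dixon's test on deposited normalised counts, and chance alone gives about 1 in 20 groups. Cd3g in CD4 cells of TRaGS replicate 2 was high at 758, the others lying between 497 and 533. Dgka in CD4 cells of TRaWT replicate 1 was high at 3216, beside 2892 to 2943. Nck1 in Treg of TRaGS replicate 4 was high at 150.1, beside 96.3 to 100.5. Zap70 in Treg of TRaGS replicate 1 was low at 166, beside 302 to 319.7. Pik3cd, a listed pathway gene outside the 46, is given because the test of the difference found that its genotype effect differed between Treg and CD4 cells, by -1.02 on the log2 scale (limma adjusted p = 0.0448 and 0.0388 to 0.774 over 15 alternatives).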

How the results depend on the processing

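With 4 mice per group, 26 of 46 members in CD4 cells and 41 in Treg had genotype intervals within a 2-fold change. For the others a 2-fold change lay within the interval. Those in CD4 cells rest on a trend of variance over all genes and not on each gene's own spread. Genotype gave 0 member calls in CD4 cells under all 18 alternatives and 0 for the difference between subsets under all 15; in Treg DESeq2 gave 1, and leaving out single mice gave 0 to 1. Between subsets, TRaWT mice gave 1 member in the reported fit, 2 with a pseudocount of 5, 2 with a mean of at least 20, 3 with edgeR, 6 with DESeq2, 7 with the replicate block, 4 with TMM scaling, 4 on deposited values, 5 when centred (added after seeing the data), and 1 to 3 without single mice. TRaGS mice gave 6, 2 on deposited values and 0 to 4 without single mice. The replicate block raised calls over all genes from 376 to 569 and from 414 to 689, and DESeq2 to 681 and 939. For genotype, where the numbers do not pair mice (correlations -0.021 to 0.0456), the replicate block gave 4 calls in CD4 cells beside 6, 112 in Treg beside 106, and 0 members in both; without it the difference between subsets gave 3 beside 17. Calls over all genes for genotype in CD4 cells were 6, and 1 with no filter, 3 with edgeR, 10 with DESeq2, 2 with upper-quartile scaling, 27 with TRaGS replicates 1 and 2 alone and 3 to 9 without single mice; in Treg they were 62 with no filter, 42 with TRaGS replicates 1 and 2 alone and 56 to 108 without single mice, and with no variance trend 0 in both subsets. For the difference they were 1 with no filter, 34 with TRaGS replicates 1 and 2 alone and 12 to 31 without single mice; between subsets 209 in TRaGS mice with no filter, and 196 to 275 (TRaWT) and 95 to 344 (TRaGS) without single mice. The other-cell share in CD4 cells ran from -0.000251 to 0.00731 percentage points without single mice (negative without TRaGS replicate 2) and in Treg from 0.0223 to 0.0287 (exact permutation p = 0.0571, the smallest possible with 3 against 4).

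Members that did not pass, and the response gene Nr4a3, changed sign as follows (log2). In CD4 cells upper-quartile scaling gave Cd3g -0.046, Lck -0.086 and Ptprc -0.024; leaving out single mice gave Cd3e -0.15 to 0.067, Cd3g -0.052 to 0.19, Lck -0.10 to 0.13, Zap70 -0.16 to 0.21 and Nr4a3 -1.24 to 0.34. In Treg upper-quartile scaling gave Cd3d 0.019 and Cd3e 0.038, TRaGS replicates 1 and 2 alone gave Fyn -0.098 and Ptprc -0.027, and leaving out single mice gave Cd3d -0.10 to 0.022, Cd3e -0.10 to 0.10, Lat -0.065 to 0.14 and Ptprc -0.023 to 0.048. Between subsets Ptprc was 0.14 and 0.059 on deposited values, Zap70 -0.087 in TRaGS mice when centred, and Lck -0.019 to 0.19 in TRaWT mice without single mice. The cause of these changes was not tested.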
